A study of Mus musculus with 9 samples.

Results

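The 10 genes described here mark the hepatocytes around the central vein of the liver lobule or answer to WNT signalling there: Glul, Oat, Slc1a2, Rhbg, Gulo, Lect2, Axin2, Rnf43, Lgr5 and Tbx3. They were taken by gene symbol from a table of 61473 features, of which 55414 carry Ensembl identifiers, and each symbol stood on 1 feature. All 10 passed the filter on low values (a mean of at least 1 TPM over all libraries), as did 12860 Ensembl features in all. Lgr5 passed with a mean of 1.04 TPM and would be lost to a slightly stricter filter. TPM is a transcript level already divided by transcript length and library total, so levels of different genes can be compared.

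Livers came from NSG mice, an immunodeficient strain, whose genotype the labels give as WT. In the PBS group 3 libraries followed injections of phosphate-buffered saline into the tail vein. In the MCF-10A EV group 3 followed injections of extracellular vesicles (EVs) from MCF-10A, human breast epithelial cells that form no tumours. In the MDA-MB-231 EV group 3 followed EVs from MDA-MB-231 cells, which derive from a triple-negative breast cancer. Injections ran for 5 weeks in every group. The series title places the question in cholesterol balance and in miR-9-5p released by cancer cells. Vesicle dose and mouse age are not given in the sources used here, and the labels do not say whether each library is a separate mouse, so p-values measure only the spread between libraries.

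In the liver lobule, blood runs from the portal tract to the central vein, and hepatocytes along that path differ in function. Endothelial cells of the central vein release WNT ligands and R-spondins. These stabilise beta-catenin in the nearest hepatocytes, where it acts with TCF/LEF factors on target genes. Pericentral hepatocytes make glutamine from ammonia that escaped the urea cycle, whereas periportal hepatocytes break glutamine down. Axin2, Rnf43 and Lgr5 belong to the feedback machinery of WNT signalling in many tissues.

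TCF/LEF factors bind words that begin with CTTTG. Upstream sequences were looked up because these genes are grouped as WNT targets. RefSeq start sites on GRCm38.p6 were found for 6 of the 10 genes (Glul, Oat, Slc1a2, Lect2, Axin2 and Rnf43, the last with 2 starts); Rhbg, Gulo, Lgr5 and Tbx3 were not matched. The 250 bases upstream were searched on both strands for CTTTGAA and for CTTTGAT, along with CTTTGTA and with CTTTGTT, which share their first 5 letters. CTTTGAT was found once in Slc1a2 and once in Lect2, and none of the 4 words was found in the other 4 genes. Of 32851 promoter windows of that length in the table, 3.21% hold CTTTGAT and 14.8% hold at least 1 of the 4 words. Over the 12144 windows of tested genes these shares are 2.39% and 10.9%. They count windows, not genes. The 2 windows with a match are shown with that of Axin2, a general WNT feedback gene without one. Capitals mark CTTTGAT as it reads on the opposite strand.
Slc1a2 (chr2:102706188-102706437, plus strand): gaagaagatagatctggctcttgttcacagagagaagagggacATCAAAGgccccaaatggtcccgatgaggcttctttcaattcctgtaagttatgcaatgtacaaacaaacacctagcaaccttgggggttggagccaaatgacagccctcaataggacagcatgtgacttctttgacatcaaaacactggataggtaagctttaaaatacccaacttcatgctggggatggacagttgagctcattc
Lect2 (chr13:56548539-56548788, minus strand): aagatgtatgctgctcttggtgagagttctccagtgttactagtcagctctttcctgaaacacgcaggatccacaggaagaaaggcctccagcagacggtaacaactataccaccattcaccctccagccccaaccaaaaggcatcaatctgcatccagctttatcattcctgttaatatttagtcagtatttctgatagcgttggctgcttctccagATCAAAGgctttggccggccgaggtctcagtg
Axin2 (chr11:108920099-108920348, plus strand): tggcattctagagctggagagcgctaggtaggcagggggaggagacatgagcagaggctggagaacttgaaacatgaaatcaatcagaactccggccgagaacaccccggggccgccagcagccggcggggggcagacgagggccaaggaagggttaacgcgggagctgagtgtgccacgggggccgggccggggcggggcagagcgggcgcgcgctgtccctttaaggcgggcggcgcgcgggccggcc
The match lies at bases -207 to -201 from the RefSeq start of Slc1a2 and at bases -32 to -26 from that of Lect2. That start is also an annotated GENCODE M21 start for Slc1a2, which has 11 of them, whereas for Lect2 it lies 36 bases upstream of the nearest one. A match is a description of letters, not of binding.

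The miRNA in the series title was set against the same genes. Its mature sequence in RefSeq is shown because its seed, bases 2 to 8 in capitals, defines the word searched for.
mmu-miR-9-5p: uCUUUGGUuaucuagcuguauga
The complement of the seed, ACCAAAG, was found in the longest annotated 3' UTR of none of the 10 genes, against 1507 of 11163 tested genes (13.5%). The 3' UTRs searched ran from 377 bases in Lect2 to 9250 bases in Slc1a2.

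The libraries differed in ways the groups do not explain. PBS 1 and MDA-MB-231 EV 3 differed together from the rest, with Xist at 320 and 273 TPM against at most 74.9 TPM in the other 7, and with the lowest albumin (Alb), at 15893 and 13114 TPM against at least 18814 TPM. Mitochondrially encoded genes held 4.96% to 12.1% of TPM in 8 libraries and 26.3% in PBS 1. MCF-10A EV 1 had the acute-phase gene Saa1 at 28585 TPM against at most 1211 TPM elsewhere, and of the Kupffer cell genes Marco at 804 TPM against at most 120 TPM and Clec4f at 0.61 TPM against at least 96.5 TPM. Of the other Kupffer cell genes examined, Adgre1, Cd5l, Csf1r and Timd4 were also highest there, Folr2 was lowest, and Vsig4 was neither. MDA-MB-231 EV 1 and 3 held the highest value of 26.9% and 27.3% of all tested genes, and MDA-MB-231 EV 2 the lowest of 23.1%. MDA-MB-231 EV 2 had the fewest Ensembl features above 0, 17403 against 18241 to 20070 elsewhere. Malat1 was at 5.66 TPM there against at least 25.2 TPM, and Xist at 7.11 TPM against at least 36.8 TPM. All loci assembled from the reads were at 0 in the MCF-10A EV libraries and held 1.21% to 5.70% of TPM elsewhere. That processing difference and the MCF-10A EV group cannot be told apart. Library depth is unknown, since TPM does not keep it. All 8 hepatocyte markers examined were present in every library.

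No member passed the test in any comparison. Changes were tested on the log2(TPM + 1) scale with limma, over all 12860 genes and 9 libraries, and called at a Benjamini-Hochberg adjusted p under 0.05. For MDA-MB-231 EV over PBS 0 of 10 were called, beside 0% of all tested genes, and 0 of 10 had an unadjusted p under 0.05, beside 1.55% of all tested genes. Between the groups given EVs the test called 0 of 10, beside 0.218% of all tested genes (28 genes, and 15 with the replicate number as a block, which again called 0 of the 10), with 0 of 10 and 3.83% at an unadjusted p under 0.05. That of MCF-10A EV with PBS called 0 of 10, beside 0.194%, with 0 of 10 and 3.2% unadjusted. The adjusted p was 1 for each of the 10 genes in each comparison. The 3 comparisons share groups, so they are not independent.

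**Figure D1:**
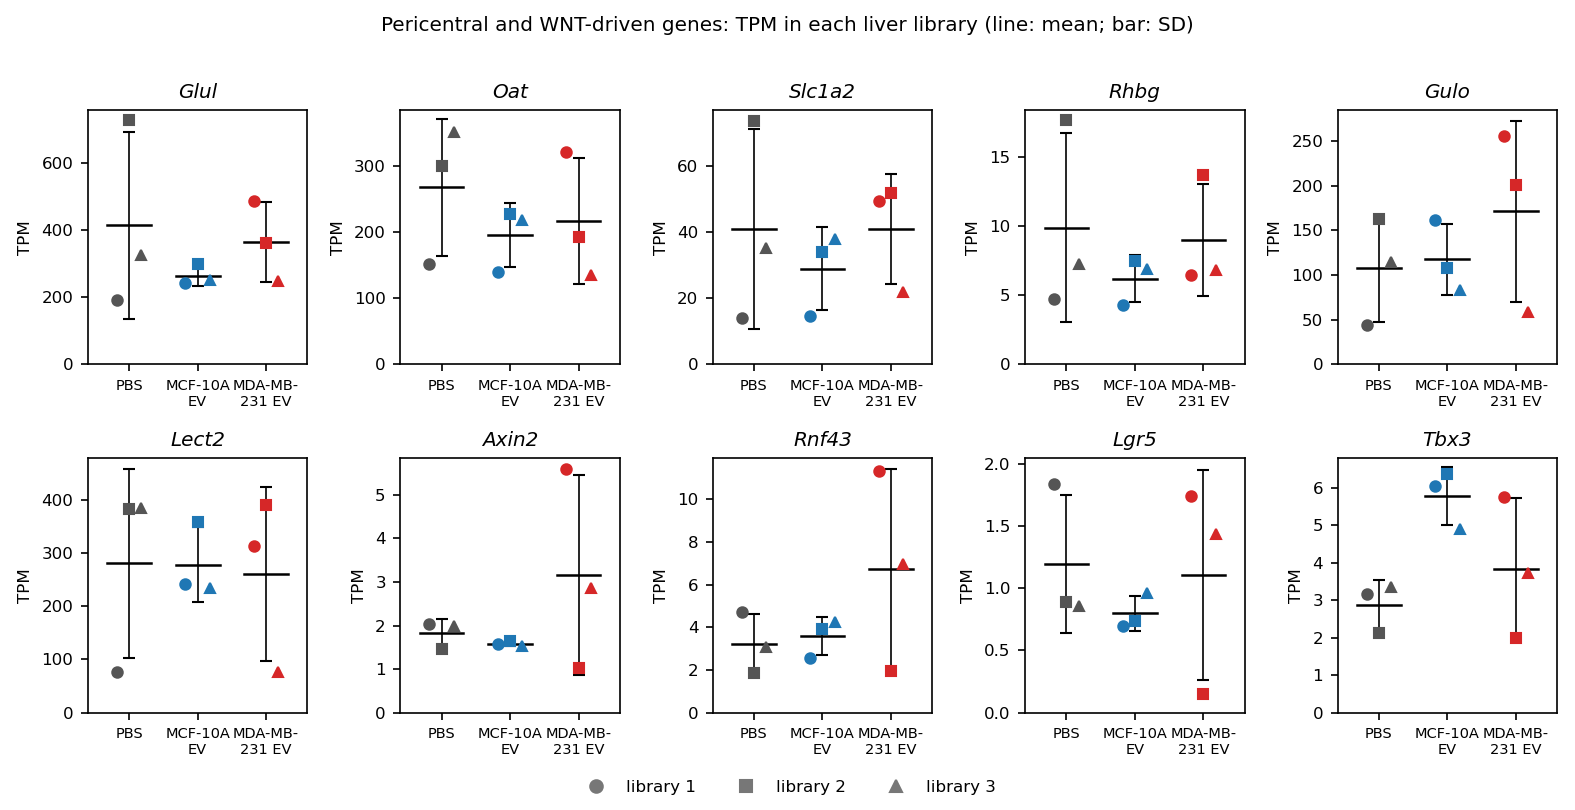
TPM (vertical axes, each from 0) of the 10 genes in the 9 libraries, by group; points are libraries, lines are group means and bars are SD (n = 3). Only Tbx3 in MCF-10A EV over PBS has groups that do not overlap, and the Glul range is widest in PBS, from 193 to 729 TPM.

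Glul, glutamine synthetase, is the classic marker of the innermost ring of hepatocytes around the central vein, and it was the most abundant of the 10 genes. It was at 193, 729 and 326 TPM in PBS 1 to 3, at 242, 300 and 254 TPM in MCF-10A EV 1 to 3, and at 487, 362 and 248 TPM in MDA-MB-231 EV 1 to 3. The PBS group held both the lowest and the highest library, so all groups overlapped. Means were 416 ± 279, 265 ± 30.7 and 366 ± 120 TPM (SD, n = 3 each). The log2 change was -0.02 ± 0.51 (SE) in MDA-MB-231 EV over PBS, -0.44 ± 0.51 in MCF-10A EV over PBS and 0.41 ± 0.51 in MDA-MB-231 EV over MCF-10A EV. The 95% interval of the first ran from -1.16 to 1.12, so changes within that range were not excluded with this spread. It is not adjusted for the number of genes tested, so a call needed a larger change than it shows. In whole-liver RNA, fewer cells of a type and less RNA per cell cannot be told apart. Without PBS 2 the changes against PBS became 0.49 in MDA-MB-231 EV and 0.075 in MCF-10A EV.

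Oat, ornithine aminotransferase, passes the nitrogen and carbon of ornithine toward glutamate in the same cells that make glutamine. Its level was 152, 300 and 351 TPM in PBS 1 to 3, 140, 227 and 219 TPM in MCF-10A EV 1 to 3, and 321, 192 and 136 TPM in MDA-MB-231 EV 1 to 3. PBS and MDA-MB-231 EV each held both high and low libraries. MCF-10A EV 1 was low, and the other MCF-10A EV libraries lay near the median. With a log2 change of -0.31 ± 0.48 in MDA-MB-231 EV over PBS and -0.40 ± 0.48 in MCF-10A EV over PBS, neither difference exceeded the spread between libraries. The range over all libraries was 2.59-fold, the narrowest of the 10 genes.

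Slc1a2, a glutamate transporter, and Rhbg, an ammonia channel of the Rh family, supply the substrates of glutamine synthetase. Slc1a2 was at 13.9, 73.5 and 35.0 TPM in PBS 1 to 3, at 14.6, 34.0 and 37.9 TPM in MCF-10A EV 1 to 3, and at 49.2, 51.6 and 21.7 TPM in MDA-MB-231 EV 1 to 3. PBS 1 and MCF-10A EV 1 were the low libraries. Rhbg was at 4.74, 17.6 and 7.23 TPM in PBS 1 to 3, at 4.27, 7.46 and 6.86 TPM in MCF-10A EV 1 to 3, and at 6.46, 13.6 and 6.79 TPM in MDA-MB-231 EV 1 to 3. PBS 2 was the highest library for Rhbg as for Slc1a2 and Glul, and MDA-MB-231 EV 2 was the second highest for Rhbg and Slc1a2. The log2 changes in MDA-MB-231 EV over PBS were 0.20 ± 0.63 for Slc1a2 and -0.02 ± 0.50 for Rhbg. Without PBS 1 that of Slc1a2 became -0.40, and without PBS 2 that of Rhbg became 0.46.

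PBS 2 also held markers of fat. The fat genes Cfd and Adipoq were at 285 and 17.6 TPM there and at most at 5.30 and 0.97 TPM in the other 8 libraries. Of 9 markers of fat, pancreas and mesothelium, the summed level was 19.3 to 360 TPM in PBS, 32.3 to 39.3 TPM in MCF-10A EV and 27.8 to 55.8 TPM in MDA-MB-231 EV. Most of the 360 TPM, the sum in PBS 2, was Cfd. In the other 8 libraries the largest part was Cela1, at 14.3 to 54.7 TPM, so those sums rest mainly on 1 gene. In that list the pancreas genes Prss2 and Cpa1 and the mesothelium gene Msln were highest in MDA-MB-231 EV 3, and Cela1 in MDA-MB-231 EV 2. Wnt2, a WNT ligand of liver endothelium, was at 2.75 TPM in PBS 2 and at most at 1.66 TPM elsewhere. Of the other endothelial markers examined, Wnt9b, Thbd and Cdh13 were also highest in PBS 2. Rspo3, Kit, Stab1, Stab2, Lyve1, Clec4g, Kdr and Pecam1 were highest in other libraries. The part of fat or endothelial cells in the high Glul, Slc1a2 and Rhbg of PBS 2 was not tested.

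Gulo, the last enzyme of vitamin C synthesis, and Lect2, a protein secreted by hepatocytes, were low in PBS 1 and MDA-MB-231 EV 3. Gulo was at 44.0, 163 and 115 TPM in PBS 1 to 3, at 162, 108 and 83.6 TPM in MCF-10A EV 1 to 3, and at 255, 201 and 58.7 TPM in MDA-MB-231 EV 1 to 3. Lect2 was at 75.9, 383 and 384 TPM in PBS 1 to 3, at 241, 359 and 234 TPM in MCF-10A EV 1 to 3, and at 312, 390 and 76.9 TPM in MDA-MB-231 EV 1 to 3. For both genes PBS 1 and MDA-MB-231 EV 3 were the 2 lowest of 9, which was so for 11.4% of all tested genes and for 5 of the 8 hepatocyte markers (Alb, Trf, Ttr, Fgb and Cps1). The log2 change in MDA-MB-231 EV over PBS was 0.62 ± 0.65 for Gulo and -0.08 ± 0.75 for Lect2. Without PBS 1 these became 0.076 and -0.86, and without MDA-MB-231 EV 3 they became 1.26 and 0.64. With both libraries left out Lect2 was at -0.13 and Gulo at 0.72, and neither was called.

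Axin2, a scaffold of the complex that degrades beta-catenin and itself a WNT target, was low in these livers. It was at 2.04, 1.46 and 2.0 TPM in PBS 1 to 3, at 1.57, 1.64 and 1.54 TPM in MCF-10A EV 1 to 3, and at 5.60, 1.03 and 2.86 TPM in MDA-MB-231 EV 1 to 3. The MDA-MB-231 EV group held both the highest and the lowest library. Means were 1.83 ± 0.324, 1.58 ± 0.0513 and 3.16 ± 2.30 TPM (SD, n = 3 each). The log2 change was 0.40 ± 0.46 in MDA-MB-231 EV over PBS and 0.53 ± 0.46 in MDA-MB-231 EV over MCF-10A EV. Without MDA-MB-231 EV 1 these became -0.011 and 0.12.

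Rnf43, a ubiquitin ligase that removes Frizzled receptors from the cell surface, had the same highest library. Its level was 4.71, 1.87 and 3.07 TPM in PBS 1 to 3, 2.57, 3.93 and 4.26 TPM in MCF-10A EV 1 to 3, and 11.3, 1.93 and 6.96 TPM in MDA-MB-231 EV 1 to 3. 2 of the MDA-MB-231 EV libraries lay above every other library and the remaining one lay among the lowest. Its log2 change of 0.70 ± 0.54 was the largest of the 10 genes in MDA-MB-231 EV over PBS, with a 95% interval from -0.49 to 1.89. Leaving out MDA-MB-231 EV 1 gave 0.25 and leaving out MDA-MB-231 EV 2 gave 1.29. MDA-MB-231 EV 1 held the highest value for Axin2, Rnf43 and Gulo, 3 of the 10 genes, a share close to that of all tested genes (26.9%).

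Lgr5, the R-spondin receptor that stabilises WNT signalling at the membrane, was the lowest of the 10. It was at 1.84, 0.89 and 0.86 TPM in PBS 1 to 3, at 0.70, 0.74 and 0.96 TPM in MCF-10A EV 1 to 3, and at 1.74, 0.15 and 1.44 TPM in MDA-MB-231 EV 1 to 3. The library at 0.15 TPM, MDA-MB-231 EV 2, was also the lowest for Axin2 and Tbx3. That is 3 of the 10 genes, beside 23.1% of all tested genes. The log2 change of Lgr5 was -0.13 ± 0.47 in MDA-MB-231 EV over PBS and 0.26 without MDA-MB-231 EV 2. At levels near 1 TPM the added 1 TPM shrinks changes, and with 0.1 TPM added instead it was -0.46 ± 0.89.

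Tbx3, a T-box repressor induced by beta-catenin, was the 1 gene with groups that did not overlap. It was at 3.16, 2.11 and 3.36 TPM in PBS 1 to 3, at 6.05, 6.37 and 4.90 TPM in MCF-10A EV 1 to 3, and at 5.76, 1.99 and 3.73 TPM in MDA-MB-231 EV 1 to 3. Every MCF-10A EV library lay above every PBS library, and the MDA-MB-231 EV libraries overlapped both groups. Means were 2.88 ± 0.671, 5.77 ± 0.773 and 3.83 ± 1.89 TPM (SD, n = 3 each). The log2 change in MCF-10A EV over PBS was 0.81 ± 0.40 with a 95% interval from -0.06 to 1.69 (limma adjusted p = 1, unadjusted p = 0.0656). Over the alternatives it ran from 0.62 to 1.00, with adjusted p from 0.170 with array weights to 1. Non-overlap in this direction held for 1 of the 10 genes and for 2.95% of all tested genes; in either direction the share of all tested genes was 7.69%. The change was -0.56 ± 0.40 in MDA-MB-231 EV over MCF-10A EV, and in MDA-MB-231 EV over PBS 0.25 ± 0.40.

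**Figure D2:**
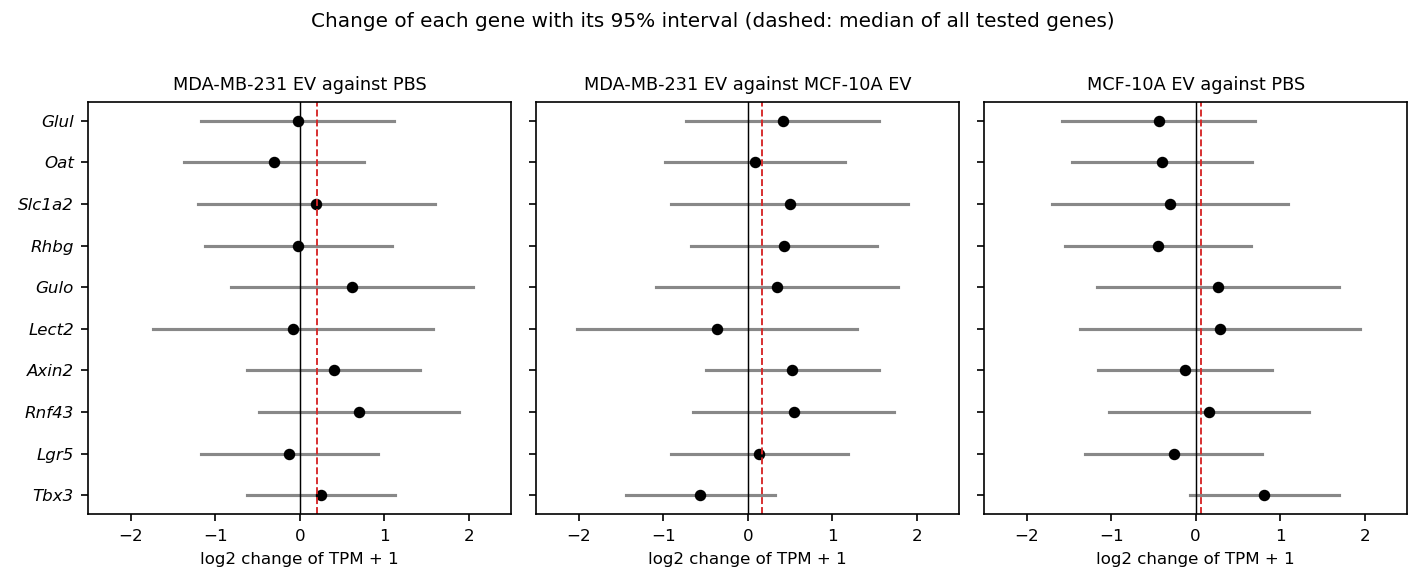
Log2 change of TPM + 1 (horizontal axis) of the 10 genes in each comparison, with 95% limma intervals as grey lines; the dashed line is the median of all tested genes, at 0.21, 0.17 and 0.07 from left to right. Every interval includes 0.

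Directions were mixed among the 10 genes. For MDA-MB-231 EV over PBS 5 of 10 were above 0, with a median of 0.09, beside 69.7% and a median of 0.21 over all tested genes. Between the EV groups 8 of 10 were above 0 (median 0.38; all tested genes 65% and 0.17). In MCF-10A EV over PBS 4 of 10 were above 0 (median -0.19; all tested genes 56.8% and 0.07). None of the 10 had groups that did not overlap in the first and second of these comparisons, where 6.03% and 6.53% of all tested genes did. The spread between libraries of a group, as an SD of log2(TPM + 1), had a median of 0.63 over the 10 genes and 0.63 over all tested genes. It was largest for Lect2 (1.08, above 85.8% of tested genes) and smallest for Tbx3 (0.39, above 14.9%).

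By level, the genes ran from Glul (mean 349 TPM over 9 libraries) through Lect2 (273), Oat (226), Gulo (132), Slc1a2 (36.8), Rhbg (8.34), Rnf43 (4.51), Tbx3 (4.16) and Axin2 (2.19) to Lgr5 (1.04). Neighbours among Glul, Lect2, Oat and Gulo overlapped across libraries, as did Slc1a2 with Rhbg, Rhbg with Rnf43, Rnf43 with Tbx3, Tbx3 with Axin2, and Axin2 with Lgr5. Gulo and Slc1a2 overlapped only through libraries low for Gulo, which was at 44.0 TPM at its lowest where Slc1a2 reached 73.5 TPM.

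Across libraries the pairs of genes were described by role, in 2 sets. All 15 pairs among the enzymes, transporters and the secreted protein (Glul, Oat, Slc1a2, Rhbg, Gulo, Lect2) had a positive Pearson's r of log2(TPM + 1), from 0.41 to 0.87. All 6 pairs among Axin2, Rnf43, Lgr5 and Tbx3 also had a positive r, from 0.30 to 0.92. The lowest of these, Lgr5 and Tbx3, had a Spearman's rho of -0.017, and an r of 0.008 without PBS 1 and MDA-MB-231 EV 2. Every pair within a set kept a positive r without PBS 1 and MDA-MB-231 EV 3, and also without MDA-MB-231 EV 1. MDA-MB-231 EV 2, the lowest library for Axin2, Lgr5 and Tbx3, was not left out of every pair. The sets also differ in level. Axin2, Rnf43, Lgr5 and Tbx3 had means of 1.04 to 4.51 TPM and the others of 8.34 to 349 TPM, so role and level were not separated. The share of positive pairs among other tested genes was not examined. Between the sets 5 of 24 pairs were positive, with a median of -0.17. That count depended on the libraries. Without PBS 1 and MDA-MB-231 EV 3 it was 12 of 24 (median -0.043, highest 0.542), and without MDA-MB-231 EV 1 it was 0 of 24 (median -0.538). Exact permutation tests over the 9 libraries, two-sided and adjusted over all 45 pairs, called 2 pairs. The points share libraries and their scaling. Gulo and Lect2 gave r = 0.815 (exact permutation p = 0.00771, adjusted p = 0.0867) and rho = 0.717 (exact permutation p = 0.0369, adjusted p = 0.139), and r was 0.264 without PBS 1 and MDA-MB-231 EV 3, so that relation rests on those libraries.

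**Figure D3:**
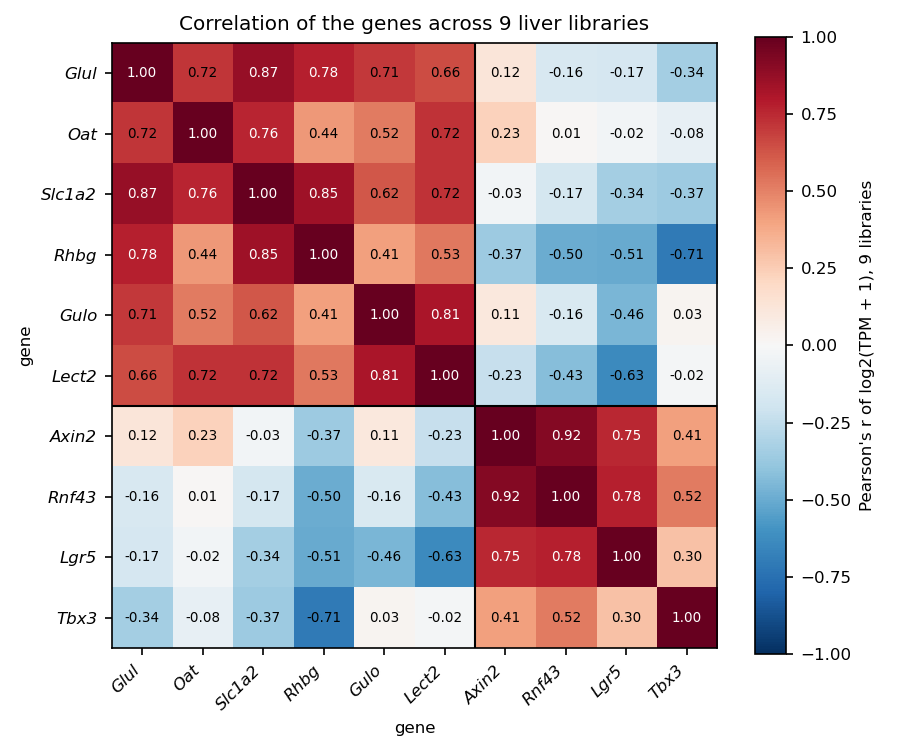
Pearson's r of log2(TPM + 1) between each pair of the 10 genes over 9 libraries (colour and printed value; both axes list the genes). Lines separate the enzymes, transporters and Lect2 from the WNT feedback genes and Tbx3; values are positive within each block, and 5 of 24 are positive between them, a count that becomes 12 without PBS 1 and MDA-MB-231 EV 3.

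Glul and Slc1a2 were 1 of the 2 pairs, with r = 0.874 (exact permutation p = 0.00155, adjusted p = 0.0349) and Spearman's rho = 0.933 (exact permutation p = 0.00075, adjusted p = 0.0338). Without PBS 2 and MDA-MB-231 EV 1, the libraries farthest from the Glul median, r was 0.861, and after subtracting group means it was 0.875. Axin2 and Rnf43 were the other pair, with r = 0.916 (exact permutation p = 0.000672, adjusted p = 0.0302) and rho = 0.867 (exact permutation p = 0.00451, adjusted p = 0.101). Without replicates 1 and 3 of the MDA-MB-231 EV group the latter r was 0.672, and after subtracting group means 0.920. Glul and Axin2 gave r = 0.124 (exact permutation p = 0.736, adjusted p = 0.872) and rho = -0.267 (exact permutation p = 0.493, adjusted p = 0.600). Without PBS 2 and MDA-MB-231 EV 1 that r was -0.504. Groups of 3 are too small for a correlation within each.

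**Figure D4:**
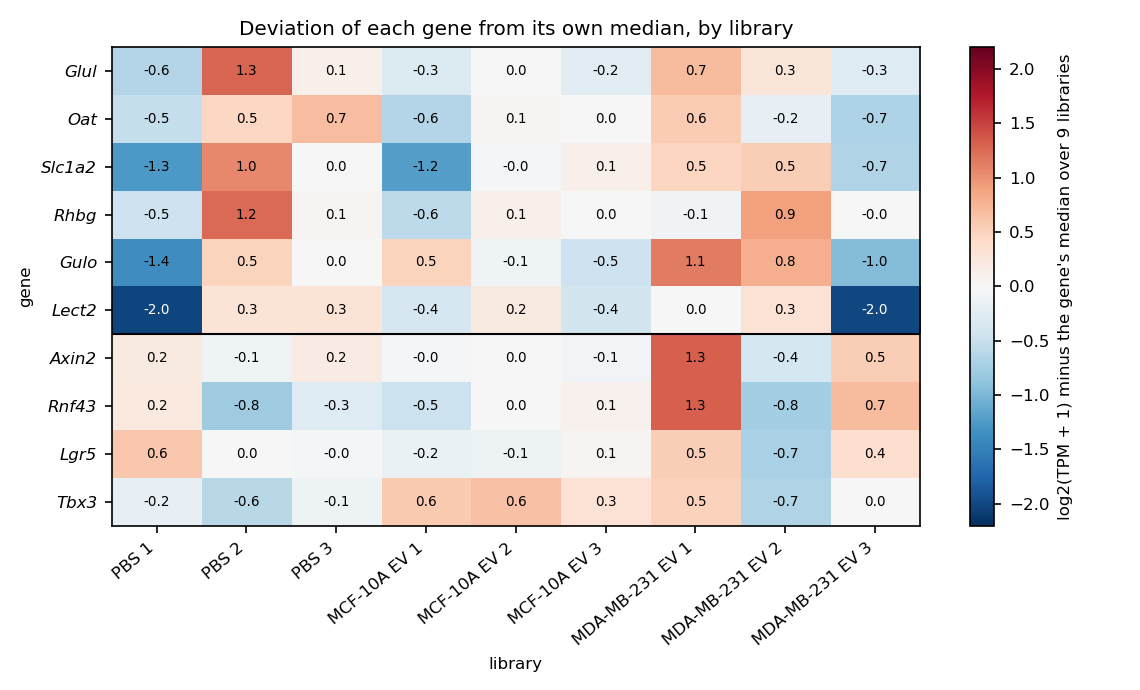
Log2(TPM + 1) of each gene (rows) in each library (columns) minus the gene's median over 9 libraries; red is above and blue below the median. The upper 6 genes are mostly low in PBS 1 and MDA-MB-231 EV 3 and high in PBS 2, while Axin2 and Rnf43 are highest in MDA-MB-231 EV 1.

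The genes with patterns most like Glul, among 7202 tested genes of at least 5 TPM, were Chpt1 (r = 0.90), Pcp4l1 (0.890), Zfp87 (0.889), Esam (0.875) and Slc1a2 itself (0.874), over 9 libraries. Those most like Axin2 were Abcg8 (0.985), Gpam (0.961), Khnyn (0.954), Lpcat3 (0.949) and Nckap1 (0.943). For Axin2 36 genes were above 0.9 and for Glul none were. Abcg8, a sterol exporter, was at 76.2 TPM in MDA-MB-231 EV 1 and between 15.7 and 34.8 TPM in the other 8, and Axin2 too was highest in MDA-MB-231 EV 1. These genes were picked as the highest of many, so no test is given.

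Upstream of the 10 genes, 12 genes for WNT ligands, their secretion and R-spondins were examined, and 5 reached the filter. Wnt5b, a ligand best known for signalling without beta-catenin, was the most abundant, at 4.75 to 14.5 TPM in all 9 libraries (mean 9.15 TPM). The central vein ligands Wnt2 and Wnt9b did not, at 0 to 2.75 and 0 to 0.54 TPM. Rspo3, the R-spondin of central vein endothelium, was at 1.24, 2.92 and 0.80 TPM in PBS 1 to 3, at 1.26, 0.89 and 0.89 TPM in MCF-10A EV 1 to 3, and at 1.64, 0.88 and 3.81 TPM in MDA-MB-231 EV 1 to 3. Its log2 change was 0.52 ± 0.49 in MDA-MB-231 EV over MCF-10A EV. Porcn, which attaches the lipid that WNT ligands need for secretion, was at 11.6 TPM in MDA-MB-231 EV 3 and at most at 3.81 TPM elsewhere. None of the 5 was called in any comparison (limma adjusted p = 1).

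Of 13 WNT receptors and their regulators, 9 were tested and none was called. Above 0 in MDA-MB-231 EV over PBS were 8 of 9, beside 69.7% of all tested genes, with a median of 0.46 beside 0.21 over all tested genes. Fzd4, a Frizzled receptor, was at 2.15, 1.83 and 2.04 TPM in PBS 1 to 3 and at 9.91, 2.85 and 2.17 TPM in MDA-MB-231 EV 1 to 3. These groups did not overlap, by a narrow margin, and the log2 change was 0.77 ± 0.48 (limma adjusted p = 1). Znrf3, the partner of Rnf43 in clearing Frizzled, was at 6.12 TPM in MDA-MB-231 EV 3 and between 0.66 and 2.16 TPM elsewhere (0.77 ± 0.53). MDA-MB-231 EV 1 was the highest library for 6 of the 9 receptor genes, beside 26.9% of all tested genes.

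Of 17 genes that carry the beta-catenin signal, 16 were tested and none was called. The median change in MDA-MB-231 EV over PBS was 0.30, with 12 of 16 above 0, beside 69.7% of all tested genes. Ctnnb1, the beta-catenin gene, was at 30.2, 73.4 and 56.9 TPM in PBS 1 to 3, at 116, 47.8 and 60.1 TPM in MCF-10A EV 1 to 3, and at 110, 62.5 and 21.4 TPM in MDA-MB-231 EV 1 to 3. Axin1, the constitutive relative of Axin2, gave a log2 change of 0.80 ± 0.50 in MDA-MB-231 EV over PBS. It was at 2.27, 2.40 and 2.21 TPM in PBS 1 to 3 and at 9.12, 3.97 and 2.71 TPM in MDA-MB-231 EV 1 to 3. MDA-MB-231 EV 1 was the highest library for 10 of these 16 genes, beside 26.9% of all tested genes. Of 14 general WNT target and feedback genes 9 were tested and 0 were called. Notum, a secreted WNT deacylase, stayed within 15.8 to 29.0 TPM over all libraries. Rgs3, a regulator of G protein signalling, gave 1.04 ± 0.42 in MDA-MB-231 EV over MCF-10A EV (limma adjusted p = 1), with no overlap between the groups.

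Other pericentral genes were tested for comparison, 26 of 26, and none was called. Their median change in MDA-MB-231 EV over PBS was 0.21, the value of all tested genes, with 15 of 26 above 0, beside 69.7% of all tested genes. Cyp2e1, the ethanol-oxidising cytochrome P450, was at 442, 4501 and 1887 TPM in PBS 1 to 3, at 2492, 1635 and 1482 TPM in MCF-10A EV 1 to 3, and at 8198, 5227 and 630 TPM in MDA-MB-231 EV 1 to 3. Its 2 lowest libraries were PBS 1 and MDA-MB-231 EV 3, as for Gulo and Lect2 and for 9 further genes of the 26. Ahr, the dioxin receptor, was lower after MCF-10A EVs than after PBS without overlap (-1.18 ± 0.40, limma adjusted p = 0.893). Of the 24 periportal genes, all tested, none was called. Among them Etnppl, a phospholyase, gave 2.32 ± 0.59 in MDA-MB-231 EV over MCF-10A EV (limma adjusted p = 0.455).

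Partners of the same metabolism were described as well. Of 17 genes of glutamine, glutamate and ammonia handling, 16 were found in the table and 13 tested, and none was called. Got1, the cytosolic aspartate aminotransferase, was at 113, 120 and 105 TPM in PBS 1 to 3 and at 197, 186 and 379 TPM in MDA-MB-231 EV 1 to 3. That log2 change of 1.09 ± 0.49, with no overlap, had an unadjusted p of 0.0482 and a limma adjusted p of 1. Of 9 genes of vitamin C synthesis and transport around Gulo, 8 were tested and none was called. Rgn, the gluconolactonase of that pathway, gave -0.56 ± 0.53 in MDA-MB-231 EV over PBS, where Gulo gave 0.62 ± 0.65.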

How the data were processed

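Liver RNA of 9 libraries was sequenced after preparation with the TruSeq RNA kit, per the labels' protocols. The authors deposited 1 table of TPM values per gene, already scaled by transcript length and library total. The submitters' processing notes list RSEM, HISAT2, StringTie and the GRCm39 build, without versions or order. TPM keep no depth, so no counting interval is given. The MCF-10A EV columns sum to 979351, 946777 and 934986 TPM and the others to 1000000 within rounding. The 6059 loci assembled from reads were left out. After adding 1 TPM and taking log2, limma 3.58.1 was run in R 4.3.3 (a mean per group, trended prior variance, two-sided), keeping Ensembl features with a mean of at least 1 TPM, with Benjamini-Hochberg adjustment over all 12860 genes per comparison; the script was tested on simulated data. Deviations from the group means correlated at 0.336, 0.11 and 0.436 between same-numbered libraries of the groups given EVs, and at -0.337 to 0.116 between differently numbered ones. With PBS the same-numbered libraries gave -0.389 to 0.50. The highest value of all, 0.625, was between PBS 1 and MDA-MB-231 EV 3, which differ in number. This is at most a weak hint that the numbers pair the samples given EVs, and the main test has no block. Alternatives covered scaling, pseudocount, filter, library weights, the samples fitted and left-out libraries. Named genes are the 10 members, up to 3 genes of smallest p per list, and genes most correlated with Glul or Axin2; single-library values of other genes were chosen after they were seen. Members and lists were chosen with earlier results of these data known. Promoters and the miRNA are from RefSeq (GRCm38.p6) and 3' UTRs from GENCODE M21 (GRCm38), not the build of the authors.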

Additional observations from a re-analysis of the deposited data

How the results depend on the processing

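None of the 10 genes was called under any of 18 alternatives in any comparison, and 489 of 526 member values kept their direction; the other 37, all of uncalled genes, changed sign. In MDA-MB-231 EV over PBS, Slc1a2 became -0.022 with quantile normalization and -0.011 without both PBS 1 and MDA-MB-231 EV 3, and Glul 0.11, Lgr5 0.012 and Rhbg 0.12 with array weights. In MDA-MB-231 EV over MCF-10A EV, Oat became -0.041 and Lgr5 -0.049 with quantile normalization, Lgr5 -0.0027 with a pseudocount of 0.1 and Lect2 0.35 without both libraries. In MCF-10A EV over PBS, Lect2 and Gulo became -0.41 and -0.30 with array weights, and -0.49 and -0.27 without both libraries. Leaving out 1 library at a time in MDA-MB-231 EV over PBS moved Slc1a2 from -0.40 to 0.76, Glul from -0.47 to 0.49, Lect2 from -0.86 to 0.64, Rhbg from -0.39 to 0.46, Axin2 from -0.011 to 0.84, Tbx3 from -0.028 to 0.56 and Lgr5 from -0.23 to 0.26. Leaving out 1 library at a time in MDA-MB-231 EV over MCF-10A EV moved Oat from -0.24 to 0.38, Gulo from -0.060 to 0.99 and Lect2 from -0.81 to 0.35. Leaving out 1 library at a time in MCF-10A EV over PBS moved Lect2 from -0.49 to 0.67, Gulo from -0.27 to 0.66, Glul from -0.88 to 0.075, Rnf43 from -0.092 to 0.40, Slc1a2 from -0.90 to 0.26 and Rhbg from -0.81 to 0.037. The cause was not tested.

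Over all genes, leaving out 1 library at a time gave 0 to 24 calls in MDA-MB-231 EV over PBS (reported 0; 24 without PBS 1 and 5 without MDA-MB-231 EV 3), 13 to 31 in MDA-MB-231 EV over MCF-10A EV (reported 28; 15 without MCF-10A EV 2, 13 without MCF-10A EV 3 and 17 without MDA-MB-231 EV 2) and 14 to 59 in MCF-10A EV over PBS (reported 25; 54 without PBS 1, 15 without PBS 3, 14 without MCF-10A EV 3 and 59 without MDA-MB-231 EV 3). Without both libraries the first became 28 and the last 85. The second became 11 without a filter, 46 with array weights, 15 with a replicate block and 17 with only the groups compared. The last became 12, 548, 20 and 66 under the same settings, and 40 with a pseudocount of 0.1. The block changed no call among the 10 genes. Same-numbered libraries of the groups given EVs had positive correlations of their deviations, though not all did with PBS. The highest correlation, 0.625, was between libraries of different number, PBS 1 and MDA-MB-231 EV 3. Lgr5 fell under the filter in some settings. With 3 libraries a group and log2 standard errors of 0.40 to 0.75, changes within the printed intervals were not excluded. Those intervals are not adjusted for the number of genes tested, so a call needed a larger change than they show. The depth of each library is unknown.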

Other observations

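Glutamine is made by Glul near the central vein and broken down by Gls2, the liver glutaminase of periportal hepatocytes, and the ratio of their levels varied more between libraries than between groups. The TPM of Glul divided by that of Gls2 was 0.466, 8.43 and 0.975 in PBS 1 to 3, 1.83, 1.34 and 1.19 in MCF-10A EV 1 to 3, and 1.91, 1.97 and 0.493 in MDA-MB-231 EV 1 to 3. PBS held both the highest and the lowest ratio, so the libraries of both groups given EVs lay within the PBS range. The upper end of that range rests on PBS 2. This ratio was chosen after its values were seen and was not tested.

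PBS 1 and MDA-MB-231 EV 3, the libraries with the lowest Gulo and Lect2, were also looked at for other genes of both zones. Of the 26 other pericentral genes 10 had their 2 lowest values there and 2 (Nr1i3 and Prodh) their 2 highest. Of the 24 periportal genes 6 had their 2 lowest values there (Cps1, Ctsc, Cyp2f2, Igfbp2, Serpina1b and Slc7a2) and 6 their 2 highest (Asl, Gls2, Sds, Sdsl, Sult5a1 and Uroc1). The 2 lowest values were there for 38.5% of the pericentral and 25.0% of the periportal genes, beside 11.4% of all tested genes. The 2 highest were there for 7.69% and 25.0%, beside 22.2% of all tested genes. High values there were therefore no more than about as frequent in either list as among all tested genes. Sds, serine dehydratase, was at 819 and 1310 TPM in these libraries and at most at 455 TPM in the other 7. No cause was tested.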
